A study of Caenorhabditis elegans with 12 samples.

Results

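The comparison set 4 libraries of the strain TDP-43dNLS against 4 libraries of the strain TDP-43, which are 8 of the 12 libraries of a Caenorhabditis elegans RNA-seq series. The libraries were chosen by strain name, and a term with 2 levels was added that marks TDP-43dNLS replicates 3 and 4 and TDP-43 replicate 4, the libraries poor in yolk and oocyte RNA. TDP-43dNLS worms carry human TDP-43 with the changes K82A, R83A and K84A in its nuclear localization signal, driven by the promoter of snb-1, with a red fluorescent marker (dsRED) under the promoter of myo-3. TDP-43 worms carry TDP-43 without these changes under the same snb-1 promoter, with dsRED under the promoter of myo-2. Wild type N2 worms, also 4 libraries, carry no transgene and are given beside the strains where their values help. All groups are labelled whole-body larval stage 4, and eggs isolated with hypochlorite were raised on 5XPEP plates at 20 °C. Whether libraries of 1 strain are from different cultures is not stated in the labels, and the p-values below cover the spread between libraries only, which may be technical. Each strain is 1 transgenic line, and the lines differ in their marker as well as in TDP-43.

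TDP-43 binds RNA and takes part in splicing and transcript processing, mainly in the nucleus. In amyotrophic lateral sclerosis and frontotemporal dementia it is lost from the nucleus of affected neurons and accumulates in their cytoplasm, and altering its nuclear localization signal holds it in the cytoplasm. The snb-1 gene encodes synaptobrevin, a vesicle protein found in all neurons, so both transgenes act in neurons, while RNA was taken from the whole animal. In such bulk RNA, fewer cells of a type and less RNA per cell cannot be told apart. The myo-3 promoter drives expression in body wall muscle and the myo-2 promoter in pharyngeal muscle.

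Library totals lay between 20671982 and 26910097 counts, and 16127 of 46926 genes had enough counts to be tested. The libraries of each strain were not alike. The yolk protein gene vit-2, which is transcribed in the intestine of adult hermaphrodites, had 3.16 and 83.4 CPM (counts divided by the TMM-adjusted library total and scaled to 1e+06) in TDP-43dNLS replicates 3 and 4, 35.2 CPM in TDP-43 replicate 4 and 6.82 CPM in wild type replicate 4. The other 8 libraries had between 1555 and 3978 CPM. The oocyte and eggshell genes had a mean level of 1.81 and 3.85 log2 CPM in TDP-43dNLS replicates 3 and 4, 3.48 in TDP-43 replicate 4 and 2.33 in wild type replicate 4, against 8.01 to 9.27 elsewhere. Yolk and oocyte transcripts were therefore abundant in 8 of the 12 libraries labelled larval stage 4. The marked libraries are called oocyte-poor below and the others oocyte-rich. TDP-43 had only 1 oocyte-poor library, so each value for TDP-43 on that side rests on 1 library.

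Body wall muscle, neuron, hypodermis, intestine, pharynx, germ line and sperm markers were all detected in both strains. Short noncoding genes in the promoter regions used for the transgenes had read counts that match the strain labels. T10H9.10 lies 2520 bases upstream of snb-1 on chromosome V (WBcel235, 6659021 to 6659161). It had 34, 28, 177 and 126 reads in TDP-43dNLS, 71, 31, 66 and 74 reads in TDP-43, and 0 reads in each wild type library. T18D3.14 lies 125 bases upstream of myo-2 on chromosome X (12467581 to 12467936). It had 0 reads in each TDP-43dNLS library, 3, 9, 16 and 10 reads in TDP-43 and 0 reads in each wild type library. The worm's own TDP-43 gene, tdp-1, had 127, 150, 39 and 46.4 CPM in TDP-43dNLS and 110, 142, 127 and 45.9 CPM in TDP-43, a log2 fold change of 0.05 ± 0.13 (SE). The gene snb-1 itself had 110, 121, 165 and 184 CPM in TDP-43dNLS and 117, 147, 133 and 137 CPM in TDP-43, a log2 fold change of -0.01 ± 0.15 (SE). Reads from human TDP-43 were not measured here.

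With the oocyte term in the model, no gene passed an adjusted p of 0.05 between TDP-43dNLS and TDP-43 (edgeR quasi-likelihood test, Benjamini-Hochberg over 16127 genes). At an unadjusted p under 0.05 there were 856 genes, or 5.31%, with 3.14% of all genes lower and 2.16% higher in TDP-43dNLS. On the same model the DESeq2 Wald test called 44 genes and limma voom called 4. The single genes below are therefore differences in size and in unadjusted p, not calls, except where a call is named. A fold change is TDP-43dNLS over TDP-43 throughout.

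Genes of the body wall muscle sarcomere were mostly lower in TDP-43dNLS than in TDP-43 at both levels of the oocyte term. The sarcomere is the contractile unit: thick filaments of myosin and paramyosin slide past thin filaments of actin, tropomyosin and troponin, and dense bodies anchor the thin filaments to the cell membrane. Of 11 thick filament and myosin chaperone genes, 9 were lower and 8 of these had an unadjusted p under 0.05. Of 16 thin filament and troponin genes, 15 were lower and 14 had such a p. Of 22 dense body and attachment genes, 21 were lower and 17 had such a p. Over all genes tested the share lower with such a p was 3.14%. The median log2 fold changes were -0.62, -0.67 and -0.50 in these 3 lists, and -0.02 over all genes tested.

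**Figure D1:**
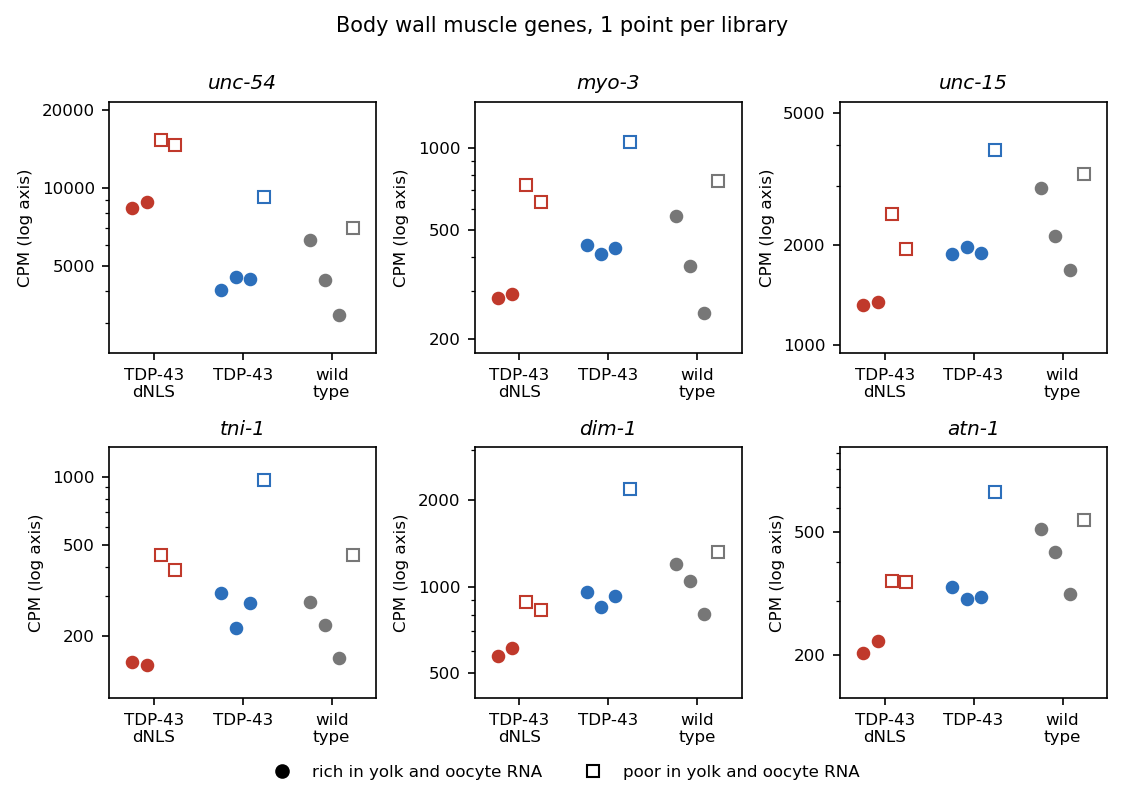
CPM (log axis) of 6 body wall muscle genes in every library of TDP-43dNLS, TDP-43 and wild type; filled circles are oocyte-rich and open squares oocyte-poor libraries. For myo-3, unc-15, tni-1, dim-1 and atn-1 the TDP-43dNLS points lie below the TDP-43 points of the same shape, and for unc-54 they lie above.

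The thick filament genes split in direction. The minor myosin heavy chain gene myo-3, whose promoter drives the marker of TDP-43dNLS, had 283, 293, 735 and 633 CPM in TDP-43dNLS, against 442, 410, 430 and 1054 CPM in TDP-43. Each TDP-43dNLS library was lower than every TDP-43 library of the same oocyte level, and the log2 fold change was -0.59 ± 0.12 (SE, unadjusted p = 0.000955). Averaged over its libraries, wild type had 485 CPM of myo-3, against 486 in TDP-43dNLS and 584 in TDP-43. Such means mix oocyte levels, and TDP-43dNLS has more oocyte-poor libraries than the other groups. The paramyosin gene unc-15, named after its values were seen, had 1323, 1350, 2486 and 1946 CPM in TDP-43dNLS, against 1879, 1975, 1891 and 3850 CPM in TDP-43 (log2 fold change -0.62 ± 0.13, SE). For unc-15 the wild type mean of 2513 CPM was near that of TDP-43 (2399) and above that of TDP-43dNLS (1776). The myosin light chain genes mlc-1 and mlc-3 had log2 fold changes of -0.67 ± 0.14 and -0.63 ± 0.14 (SE). The major body wall myosin heavy chain gene unc-54 went the other way. It had 8338, 8833, 15388 and 14616 CPM in TDP-43dNLS, against 4022, 4509, 4429 and 9255 CPM in TDP-43 and 6284, 4400, 3206 and 6980 CPM in wild type. The 2 strains did not overlap at either oocyte level, and the log2 fold change was 0.88 ± 0.12 (SE, unadjusted p = 3.94e-05, adjusted p = 0.212). It was called in 5 of 22 alternatives, with adjusted p between 0.000626 and 0.999, and was higher in TDP-43dNLS in every one of the 22. The labels name no 3′ end for the constructs, and reads from any sequence that a transgene shares with a worm gene cannot be told apart from that gene's own.

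Thin filament genes had the largest median difference of the 3 lists in the oocyte-poor libraries. The troponin I gene tni-1 had 153, 149, 452 and 389 CPM in TDP-43dNLS, against 309, 216, 279 and 963 CPM in TDP-43, a log2 fold change of -0.96 ± 0.16 (SE, unadjusted p = 0.000249). The troponin T gene tnt-2 had 724, 905, 719 and 675 CPM in TDP-43dNLS, against 1140, 1192, 1167 and 2025 CPM in TDP-43 (log2 fold change -0.90 ± 0.20, SE). The wild type mean of tni-1 was 278 CPM, against 286 in TDP-43dNLS and 442 in TDP-43, where replicate 4 alone had 963. Such means mix oocyte levels, and TDP-43dNLS has more oocyte-poor libraries, so they do not show which strain wild type was nearer to. For tnt-2 the wild type mean (1323 CPM) was near that of TDP-43 (1381) and above that of TDP-43dNLS (756). The 4 TDP-43dNLS libraries of tnt-2 all lay below the 4 TDP-43 libraries, whatever their oocyte level. The actin depolymerizing factor gene unc-60 and the thin filament stabilizer gene unc-87 had log2 fold changes of -0.68 ± 0.13 and -0.66 ± 0.16 (SE). The exceptions without an unadjusted p under 0.05 were tni-3 (log2 fold change -0.28) and tnt-3 (0.03). The list median was -0.33 in the oocyte-rich libraries and -1.21 in the oocyte-poor libraries.

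Dense body genes gave the same median at both levels, -0.51 in the oocyte-rich and -0.51 in the oocyte-poor libraries. The alpha-actinin gene atn-1 had 204, 223, 347 and 346 CPM in TDP-43dNLS, against 333, 304, 309 and 673 CPM in TDP-43 and 514, 430, 316 and 549 CPM in wild type (log2 fold change -0.71 ± 0.13, SE). The immunoglobulin-domain gene dim-1, which helps to hold the filament lattice, had 573, 613, 887 and 830 CPM in TDP-43dNLS, against 960, 852, 932 and 2191 CPM in TDP-43 and 1202, 1052, 807 and 1321 CPM in wild type. For dim-1 the TDP-43dNLS libraries were lower than those of both other groups at each oocyte level, and the log2 fold change from TDP-43 was -0.89 ± 0.16 (SE, unadjusted p = 0.00042). The LIM-domain genes alp-1 and unc-97 had log2 fold changes of -0.77 ± 0.14 and -0.67 ± 0.13 (SE). The dystrobrevin gene dyb-1 was the only member with a positive value (0.25, unadjusted p = 0.21).

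Counting libraries rather than fitting them used the same 8 libraries and oocyte levels, so it is not separate support. On the oocyte-poor side it compares with TDP-43 replicate 4 alone. In 8 of 11 thick filament, 13 of 16 thin filament and 17 of 22 dense body genes, every TDP-43dNLS library lay below every TDP-43 library of its oocyte level, against 4.64% of all genes tested. Only unc-54 of these lists lay above in the same sense, against 3.35% of all genes. Genes of muscle excitation and calcium handling, such as channels, acetylcholine receptors and the calcium pump, were lower in 15 of 16 cases with a median of -0.24, and 0 of the 16 had an unadjusted p under 0.05.

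With TDP-43 replicate 4 left out, the oocyte-poor level holds only TDP-43dNLS libraries, so the strain difference then rests on the oocyte-rich libraries. The counts with an unadjusted p under 0.05 were then 8 of 11, 9 of 16 and 15 of 22, against 2.13% of all genes, and the medians were -0.47, -0.32 and -0.51. Without the oocyte term they were 1 of 11, 9 of 16 and 1 of 22, against 0.422% of all genes.

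**Figure D2:**
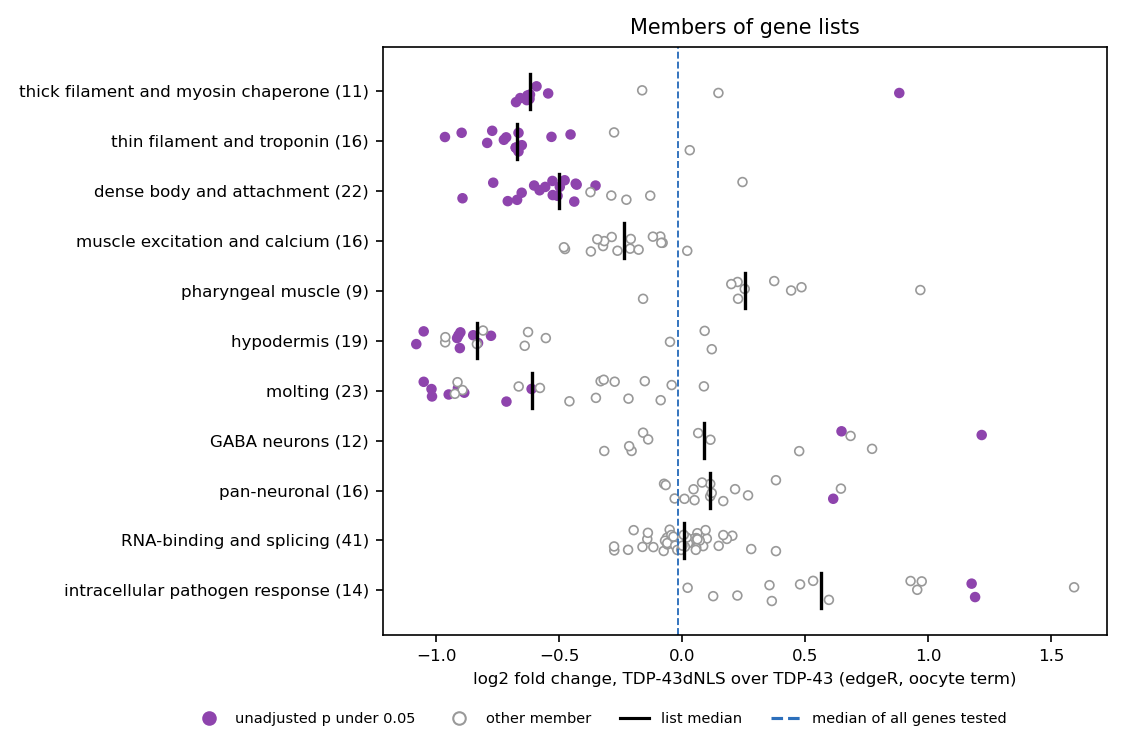
Log2 fold change, TDP-43dNLS over TDP-43, of each tested member of 11 gene lists (list size in brackets); filled points have an unadjusted p under 0.05, black bars are list medians and the dashed line is the median of all genes tested (-0.02). The 3 sarcomere lists lie left of the line apart from unc-54 and a few members, and the RNA-binding and splicing list lies around it.

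Hypodermis and molting genes were mostly lower in TDP-43dNLS as well. The hypodermis makes the cuticle, and molting genes are transcribed in pulses before each molt. Of 19 hypodermis genes, 17 were lower in TDP-43dNLS with a median of -0.83, and 9 had an unadjusted p under 0.05. Of 23 molting genes, 22 were lower with a median of -0.61, and 8 had such a p. Over all genes tested 3.14% were lower at that p. Most members of the hypodermis list are cuticle collagen genes. Its 2 higher members were the transcription factor genes elt-3 (log2 fold change 0.12) and elt-1 (0.09). The cuticle collagen gene dpy-7 had 8.54, 8.71, 118 and 149 CPM in TDP-43dNLS, against 30.7, 10, 17.1 and 240 CPM in TDP-43 (log2 fold change -1.05 ± 0.33, SE). The collagen gene dpy-10 had a log2 fold change of -0.83 ± 0.26, and the molting genes let-653 and noah-2, which encode proteins of the extracellular matrix, had -0.61 ± 0.20 and -0.89 ± 0.32 (SE). Without the oocyte term the hypodermis median was -0.03 and the molting median 0.15. The mean level of the molting list was 3.45 and 3.26 log2 CPM in the oocyte-rich TDP-43dNLS libraries and 4.55, 3.37 and 3.83 in those of TDP-43, so that TDP-43 replicate 2 lay close to TDP-43dNLS. It was 6.10 and 6.16 in the oocyte-poor TDP-43dNLS libraries, 6.56 in that of TDP-43, and spanned 2.64 to 6.16 in wild type.

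The molting list level was therefore added to the model as a further covariate, a choice made after its values were seen. The hypodermis median was then -0.15 and 0 of its 19 genes had an unadjusted p under 0.05. In the sarcomere, 6 of 11 thick filament, 15 of 16 thin filament and 12 of 22 dense body genes were then lower with such a p, against 1.27% of all genes, and the medians were -0.54, -0.74 and -0.42. The log2 fold changes of unc-54, tni-1, dim-1 and atn-1 were 0.81, -0.75, -0.85 and -0.66.

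Pharyngeal muscle, where the myo-2 promoter of the TDP-43 strain's marker is active, had mostly positive values. Of 9 pharyngeal muscle genes, 8 were higher in TDP-43dNLS with a median of 0.25, and 0 had an unadjusted p under 0.05. The median was 0.57 in the oocyte-rich and -0.03 in the oocyte-poor libraries. The pharyngeal myosin gene myo-2 had 337, 178, 574 and 344 CPM in TDP-43dNLS, against 101, 185, 186 and 470 CPM in TDP-43 (log2 fold change 0.44 ± 0.32, SE). The gene myo-1, the other pharyngeal myosin, had 370, 191, 541 and 388 CPM in TDP-43dNLS, against 103, 183, 183 and 517 CPM in TDP-43. The strains overlapped for both genes. The homeobox gene ceh-22, which is needed for pharyngeal muscle gene expression, had the lowest p of the list (log2 fold change 0.97 ± 0.44, SE, unadjusted p = 0.0548).

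Neurons, where both transgenes are active, gave small differences. Of 16 pan-neuronal genes, 13 were higher in TDP-43dNLS with a median of 0.11, and 1 had an unadjusted p under 0.05. Of 37 genes of synaptic release, 19 were higher with a median of 0.00. Of 30 FMRFamide-like peptide genes, 23 were higher with a median of 0.10 and 1 had such a p. Of 67 genes of the nlp neuropeptide class, 42 were higher with a median of 0.08 and 4 had such a p, against 2.16% of all genes.

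The neuropeptide gene flp-1 had 47.2, 45.6, 67.3 and 91.3 CPM in TDP-43dNLS, against 17, 18.7, 23.5 and 77.6 CPM in TDP-43 and 109, 92.7, 70.2 and 167 CPM in wild type. In the oocyte-rich libraries TDP-43dNLS lay above TDP-43 and below wild type, and in the oocyte-poor ones it overlapped TDP-43. Its log2 fold change was 0.79 ± 0.25 (SE, unadjusted p = 0.0119), with 1.21 in the oocyte-rich and 0.06 in the oocyte-poor libraries. The neuropeptide gene nlp-49 had 61.2, 47.5, 97.1 and 97.7 CPM in TDP-43dNLS, against 22.2, 27.5, 32.9 and 81.7 CPM in TDP-43 and 125, 97.8, 73.9 and 187 CPM in wild type. Its order was the same, and TDP-43dNLS was above TDP-43 at both oocyte levels (log2 fold change 0.71 ± 0.20, SE, unadjusted p = 0.00618).

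GABA neurons release the main inhibitory transmitter onto body muscle. The GABA list holds genes of these neurons and of GABA reception, and it was mixed. Of 12, 7 were higher and 5 lower with a median of 0.09. Of these, 2 had an unadjusted p under 0.05, against 2.16% of all genes higher at that p. The lower members include unc-49 (-0.32) and tbx-2 (-0.16), which are also in the muscle excitation and pharyngeal muscle lists, and lim-6 (-0.14). The genes unc-46 and unc-47 had log2 fold changes of 0.77 ± 0.37 and 0.48 ± 0.29 (SE). The GABA-synthesizing enzyme gene unc-25 had 41, 37.9, 99.2 and 72.5 CPM in TDP-43dNLS, against 22.9, 21.5, 35.5 and 49 CPM in TDP-43 and 70.2, 63.5, 72.7 and 128 CPM in wild type. TDP-43dNLS did not overlap TDP-43 at either level (log2 fold change 0.65 ± 0.22, SE, unadjusted p = 0.0152). The homeobox gene unc-30, which sets the identity of GABA motor neurons, had 5.01, 4.91, 18 and 13.6 CPM in TDP-43dNLS, against 1.72, 1.26, 3.61 and 6.31 CPM in TDP-43 (log2 fold change 1.22 ± 0.37, SE). The glutamate-gated chloride channel gene glc-1 had 9.36, 7.20, 15.4 and 22.8 CPM in TDP-43dNLS, against 4.71, 3.09, 2.84 and 5.51 CPM in TDP-43. All 4 TDP-43dNLS libraries of glc-1 lay above all 4 TDP-43 libraries (log2 fold change 1.42 ± 0.30, SE, unadjusted p = 0.00102).

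Among genes for secreted immunoglobulin-domain proteins of the zig class, zig-2 had 1.88, 3.44, 1.48 and 6.01 CPM in TDP-43dNLS and 1.06, 1.22, 1.6 and 1.01 CPM in TDP-43, against 23.8, 24.5, 15.8 and 17.4 CPM in wild type. Both transgenic strains were thus far below wild type, and TDP-43dNLS lay above TDP-43 within each oocyte level but not across levels (log2 fold change 1.31 ± 0.54, SE, unadjusted p = 0.0386). The genes zig-12 and zig-6 were lower in TDP-43dNLS, with log2 fold changes of -0.84 ± 0.18 and -0.94 ± 0.26 (SE). RNA-binding and splicing genes, the class of TDP-43 itself, had a median of 0.01 over 41 members, 22 of them higher, and 0 with an unadjusted p under 0.05. Nuclear pore and transport genes had a median of 0.08 over 40 members, also with 0.

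**Figure D3:**
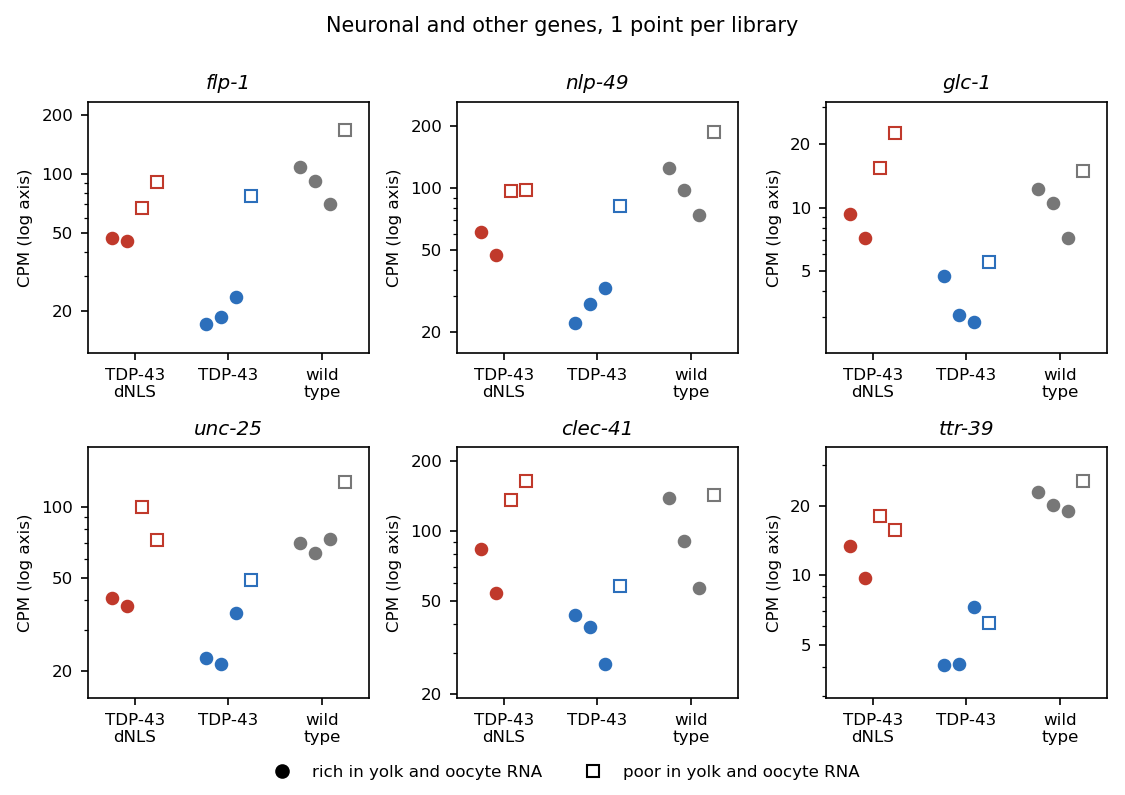
CPM (log axis) of flp-1, nlp-49, glc-1, unc-25, clec-41 and ttr-39 in every library; filled circles are oocyte-rich and open squares oocyte-poor libraries. Apart from flp-1 in the oocyte-poor libraries, the TDP-43dNLS points lie above the TDP-43 points of the same shape.

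Detoxification and defence genes leaned towards TDP-43dNLS. Cytochrome P450 genes, which oxidize foreign and internal compounds, were higher in 39 of 61 cases (median 0.26), with 7 higher and 1 lower at an unadjusted p under 0.05. UDP-glucuronosyltransferase genes, whose enzymes attach sugars to such compounds, were higher in 42 of 62 (median 0.30) with 4 higher at that p. Glutathione transferase genes were higher in 26 of 42 (median 0.19) with 6 higher. C-type lectin genes, many of which are expressed in the intestine and respond to microbes, were higher in 71 of 119 (median 0.18), with 10 higher and 1 lower. Lysozyme and saposin-like genes were split, 16 of 32 higher (median 0.00), with 6 higher at that p. Over all genes 2.16% were higher at that p.

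The lectin gene clec-41 had 83.8, 54.1, 136 and 163 CPM in TDP-43dNLS, against 43.9, 38.9, 27 and 58.5 CPM in TDP-43 and 138, 91.1, 57.1 and 143 CPM in wild type. TDP-43dNLS lay above TDP-43 at both levels and overlapped wild type (log2 fold change 1.08 ± 0.22, SE, unadjusted p = 0.000841). The lectin gene clec-65 had a log2 fold change of 0.85 ± 0.21, the P450 gene cyp-34A9 of 1.13 ± 0.28 and the transferase gene ugt-19 of 0.67 ± 0.21 (SE). The lysozyme gene lys-2 had 85.1, 78.6, 172 and 162 CPM in TDP-43dNLS, against 67.4, 58.9, 55.7 and 44.7 CPM in TDP-43, and the saposin-like gene spp-8 had a log2 fold change of 1.24 ± 0.36 (SE). The transthyretin-related gene ttr-39 had 13.4, 9.70, 18.1 and 15.7 CPM in TDP-43dNLS, against 4.09, 4.11, 7.25 and 6.18 CPM in TDP-43 and 22.8, 20.1, 18.9 and 25.7 CPM in wild type (log2 fold change 1.26 ± 0.29, SE). All TDP-43dNLS libraries of ttr-39 lay above TDP-43 and below wild type.

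The intracellular pathogen response is a program first described for microsporidia and virus infection. Its genes were higher in 14 of 14 cases with a median of 0.56, and 2 had an unadjusted p under 0.05, against 2.16% of all genes higher at that p. With the oocyte levels fitted apart, 7 of the 14 were higher at both. The median was -0.06 in the oocyte-rich and 1.89 in the oocyte-poor libraries, so the positive median was seen in the libraries where TDP-43 has 1 replicate. The ubiquitin ligase component gene skr-4 had log2 fold changes of 1.29 in the oocyte-rich and 0.98 in the oocyte-poor libraries. It had 11.1, 6.79, 8.05 and 14 CPM in TDP-43dNLS, against 4.79, 3.14, 2.99 and 5.68 CPM in TDP-43 (log2 fold change 1.18 ± 0.32, SE).

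The largest single differences lay in a few places of the genome. The pseudogene Y71G12B.28 on chromosome I (1828079 to 1831929) had 0.627, 0.573, 0 and 0 CPM in TDP-43dNLS, against 18.3, 26.5, 26 and 5.64 CPM in TDP-43 and 0.18, 0, 0.471 and 0.431 CPM in wild type. Its reads were thus nearly confined to the TDP-43 strain, with the smallest adjusted p of all genes (0.054, with a range of 1.19e-25 to 0.998 over the alternatives and a call in 9 of 22). C30G12.1, a protein-coding gene on chromosome II (7299342 to 7301633), had 2.23, 0.941, 4.32 and 4.63 CPM in TDP-43dNLS, against 17.2, 11.5, 17.5 and 29.7 CPM in TDP-43 and 4.63, 2.60, 1.67 and 7.61 CPM in wild type. Each TDP-43 library was above all 8 others (log2 fold change -3.07 ± 0.35, SE, adjusted p = 0.0884), and 9 of 22 alternatives called it, with adjusted p between 2.76e-16 and 0.998.

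The genes that follow C30G12.1 on the chromosome were lower in TDP-43dNLS as well. Between C30G12.1 and mtch-1, over 74.8 kb, 14 of 16 tested genes were lower with a median of -0.86, and 9 had an unadjusted p under 0.05. In the 150 kb on each side, 25 of 46 were lower with a median of -0.02, and 4 had such a p. The ends of the stretch were set after its values were seen, and 3 of those 4 genes lay close to it and were lower too. These were rpb-4, which encodes an RNA polymerase II subunit, and F43E2.1, both just beyond mtch-1, with log2 fold changes of -0.78 ± 0.23 and -0.52 ± 0.17 (SE), and C30G12.6 on the other side, with -0.88 ± 0.34 (SE). The mitochondrial carrier homolog mtch-1 (7372615 to 7374166), named with its neighbours after their values were seen, had 269, 363, 299 and 281 CPM in TDP-43dNLS, against 561, 583, 505 and 649 CPM in TDP-43 and 272, 306, 344 and 329 CPM in wild type (log2 fold change -0.93 ± 0.14, SE, unadjusted p = 9.54e-05). F45E12.5 and the nuclear envelope phosphatase gene cnep-1 had log2 fold changes of -0.94 ± 0.15 and -0.96 ± 0.15 (SE). For C30G12.1, F45E12.5, cnep-1 and mtch-1 the TDP-43 libraries lay above those of both other groups, which overlapped each other across oocyte levels. The gene insc-1, the worm homolog of inscuteable, had a log2 fold change of -1.32 ± 0.21 (SE) and a different order of the groups. Its TDP-43dNLS libraries lay below those of both other groups at each oocyte level. In the oocyte-rich libraries wild type overlapped TDP-43 for insc-1, so not every gene of the stretch was higher in TDP-43 alone. The cullin gene cul-4 next to C30G12.1 had a log2 fold change of -0.45 ± 0.16 (SE). Between C30G12.6 and C30G12.1, the RNA-binding gene puf-8 had -0.24 ± 0.21 (SE).

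**Figure D4:**
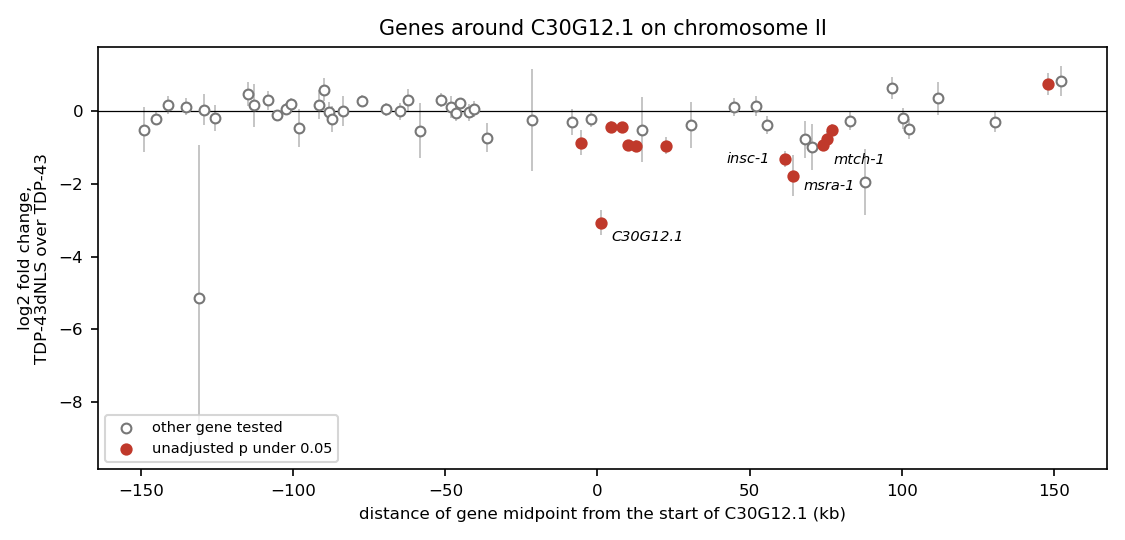
Log2 fold change, TDP-43dNLS over TDP-43, with its SE, of each tested gene around C30G12.1 against the distance of its midpoint from the start of C30G12.1 in kb. Genes from C30G12.1 to mtch-1 lie mostly below 0 (14 of 16), and most genes farther away lie around 0; filled points have an unadjusted p under 0.05.

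On chromosome V a run of neighbouring genes was lower in TDP-43dNLS than in both other groups at each oocyte level. The gene exh-1 (3157086 to 3157871) had 9.44, 8.51, 7.29 and 11.5 CPM in TDP-43dNLS, against 21.9, 19.7, 22.5 and 66.0 CPM in TDP-43 and 38.2, 41.2, 26.3 and 39 CPM in wild type (log2 fold change -1.83 ± 0.32, SE). Its neighbour C36C5.12 (3158404 to 3159352) had 1.53, 3.48, 3.6 and 3.33 CPM in TDP-43dNLS, against 8.56, 8.14, 8.27 and 28.6 CPM in TDP-43 and 10.1, 11.3, 9.21 and 21.3 CPM in wild type (log2 fold change -2.24 ± 0.35, SE). The strains did not overlap for either gene. The next gene, C36C5.14, had a log2 fold change of -3.07 ± 0.78 (SE), and -2.11 with TDP-43 replicate 4 left out. It had 0.509, 0.614, 2.48 and 0.284 CPM in TDP-43dNLS, against 3.40, 2.85, 1.06 and 30.2 CPM in TDP-43, so TDP-43dNLS was lower at each oocyte level. Farther along the chromosome Y19D10B.6 had 5.01, 6.3, 7.17 and 12.9 CPM in TDP-43dNLS, against 11.9, 14.4, 14.8 and 32.2 CPM in TDP-43 (log2 fold change -1.43 ± 0.25, SE).

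Other genes that averaged 5 CPM or more in their higher strain (F47G6.3, W09G12.7, nspg-12 and K10C9.9 averaged less over both strains), with an unadjusted p under 0.01 and the same direction at both oocyte levels included the klotho homolog klo-2, H34I24.2, W09G12.7, C10C6.7, F15B9.6, R02C2.7, Y55F3AM.11, drd-50, nspg-12, C31H5.6 and M28.10, which were higher in TDP-43dNLS with log2 fold changes between 1.27 (nspg-12) and 1.74 (Y55F3AM.11). The palmitoyl-protein thioesterase gene ppt-1, F47G6.3, bus-18, mam-4, the pseudogene K10C9.9 and T20D4.10 were lower, with values between -2.19 (F47G6.3) and -1.33 (K10C9.9). For ppt-1 the values were 1.45, 1.96, 4.72 and 10.1 CPM in TDP-43dNLS, against 10.5, 5.29, 7.22 and 13.2 CPM in TDP-43. For W09G12.7 they were 7.09, 4.21, 6.49 and 7.47 CPM in TDP-43dNLS, against 2.7, 1.3, 1.53 and 2.27 CPM in TDP-43.

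Whether the strain difference itself depended on the oocyte level was tested with an interaction term, which compares TDP-43dNLS minus TDP-43 in the oocyte-poor libraries with the same difference in the oocyte-rich libraries. It called 71 genes, or 0.44% of those tested, at an adjusted p of 0.05 (edgeR quasi-likelihood test). In 51 of them, 0.316%, TDP-43dNLS was relatively higher in the oocyte-poor libraries, and in 20 relatively lower. The 12 with the lowest p are described, a limit set after the values were seen. In all of them TDP-43 replicate 4 lay outside the range of the other oocyte-poor libraries, wild type replicate 4 included. The test cannot be fitted without that library, and leaving out other single libraries gave between 0 and 1594 genes.

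**Figure D5:**
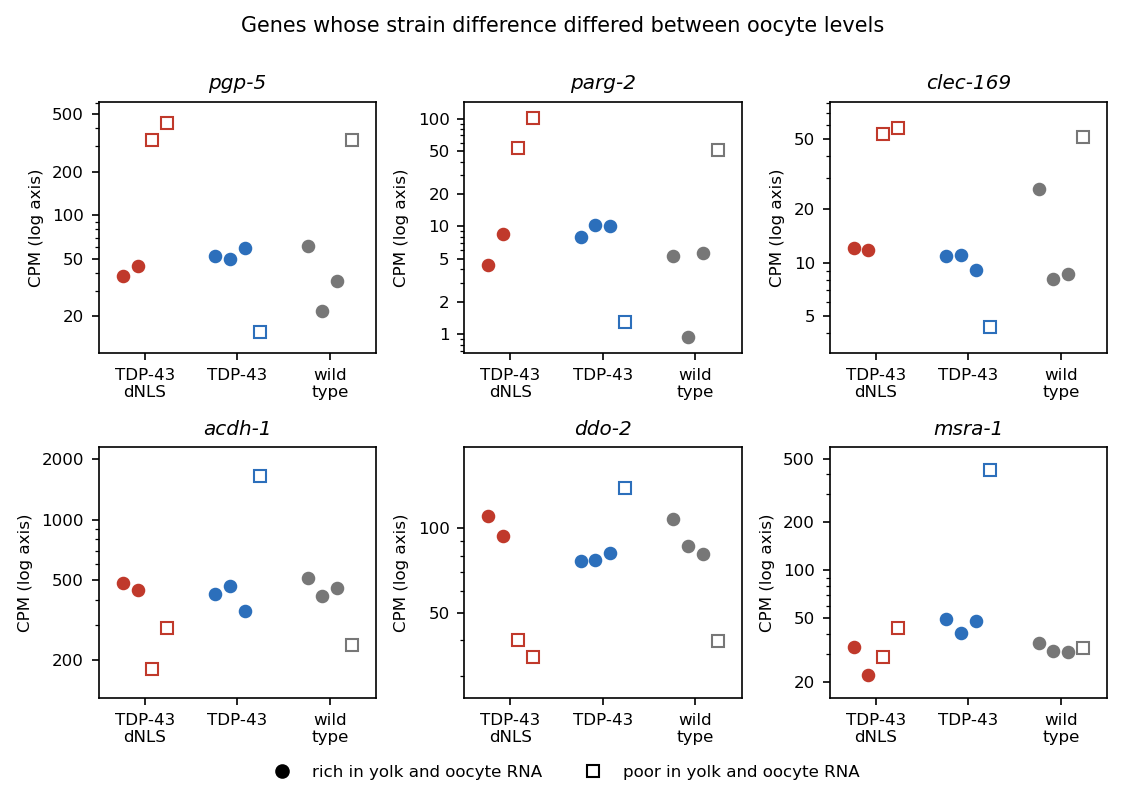
CPM (log axis) of 6 genes whose strain difference differed between oocyte levels, in every library; filled circles are oocyte-rich and open squares oocyte-poor libraries. The open square of TDP-43 lies apart from the open squares of TDP-43dNLS and wild type in each panel.

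The P-glycoprotein transporter gene pgp-5 had 37.8, 44.2, 330 and 435 CPM in TDP-43dNLS, against 52.5, 50, 58.9 and 15.5 CPM in TDP-43 and 61.5, 21.9, 35.2 and 333 CPM in wild type. Its level was thus high in the oocyte-poor libraries of TDP-43dNLS and wild type and low in that of TDP-43, an interaction of 5.03 ± 0.33 on the log2 scale (SE, adjusted p = 0.00347). The same pattern was seen for parg-2, a poly(ADP-ribose) glycohydrolase gene, with 53.8 and 102 CPM in the oocyte-poor TDP-43dNLS libraries, 1.3 CPM in TDP-43 replicate 4 and 51 CPM in wild type replicate 4. It was also seen for the lectin gene clec-169, the glucuronosyltransferase gene ugt-31, E03H4.8, Y54E2A.4, C25F9.11, srw-86 and T24A6.7, with interactions between 1.99 (Y54E2A.4) and 6.54 (T24A6.7). Further called genes were irg-1, cebp-1 and nipi-3, chosen after their values were seen. The infection response gene irg-1 had 63.7 and 92.7 CPM in the oocyte-poor TDP-43dNLS libraries, 9.59 CPM in TDP-43 replicate 4 and 54.1 CPM in wild type replicate 4. The bZIP transcription factor gene cebp-1 had 131 and 132 CPM in those TDP-43dNLS libraries, 21.6 CPM in TDP-43 replicate 4 and 116 CPM in wild type replicate 4. The Tribbles-like pseudokinase gene nipi-3 had 161 and 164 CPM in TDP-43dNLS, 54.3 CPM in TDP-43 and 123 CPM in wild type.

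In the opposite direction, acdh-1, an acyl-CoA dehydrogenase gene of the propionate shunt, had 483, 445, 181 and 290 CPM in TDP-43dNLS, against 429, 469, 350 and 1639 CPM in TDP-43 and 511, 419, 460 and 238 CPM in wild type. TDP-43 replicate 4 was the highest of all 12 libraries (interaction -2.95 ± 0.34, SE, adjusted p = 0.0248). The genes hphd-1 and hach-1 encode further enzymes of the same shunt, and mtrr-1 encodes methionine synthase reductase. These 3 were chosen after their values were seen. In the oocyte-poor libraries hphd-1 had 120 and 113 CPM in TDP-43dNLS, 505 CPM in TDP-43 and 138 CPM in wild type. In the same libraries hach-1 had 52.7 and 62.0 CPM in TDP-43dNLS, 310 CPM in TDP-43 and 75.5 CPM in wild type. There mtrr-1 had 29.9 and 41.8 CPM in TDP-43dNLS, 154 CPM in TDP-43 and 33.9 CPM in wild type. The genes ddo-2 and nspc-9 had interactions of -2.26 ± 0.25 and -3.36 ± 0.39 (SE). The methionine sulfoxide reductase gene msra-1, which lies in the stretch on chromosome II, had 33.2, 22.2, 28.5 and 43.8 CPM in TDP-43dNLS, against 49.4, 40.6, 48.0 and 422 CPM in TDP-43 and 35.1, 31.5, 30.8 and 32.6 CPM in wild type (interaction -2.80 ± 0.40, SE, adjusted p = 0.0401). In the oocyte-rich libraries its TDP-43dNLS values were also below those of TDP-43.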

How the data were processed

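Poly-A RNA from whole worms was sequenced in 12 libraries, of which the 8 of TDP-43dNLS and TDP-43 were compared. The authors deposited raw read counts per gene (46926 genes). Per the submitters' processing notes, the WBcel235 build, STAR, R 4.4.2 and featureCounts 2.20.0 were used. Strand setting, annotation release and the handling of multiply mapping reads were not given in the sources used here. Counts of overlapping or antisense genes and of near-identical copies (act-1 to act-4, msp genes) may therefore include a partner's reads. Gene names and positions are those of Ensembl for WBcel235, which held all identifiers.

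Counts were analysed in R 4.3.3. Genes were kept by filterByExpr (minimum count 10), which left 16127 genes with 99.9% of the counts, and scaled by TMM. Strain and the oocyte term, or their interaction, were tested with edgeR 4.0.16 (quasi-likelihood, robust, Benjamini-Hochberg, threshold 0.05). The common dispersion was 0.129 with the oocyte term and 0.440 without it. CPM shown are TMM-scaled over all 12 libraries. SEs follow from the fold change and its F statistic. List levels are mean log2 CPM with a prior count of 2. The alternatives are in the closing section, with DESeq2 1.42.0 and limma 3.58.1 among them.

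The oocyte term is defined from expression, not from a label. The libraries, the term and the 63 gene lists (22 symbols unmatched) were chosen with earlier results of these data known. Genes were named if they passed the threshold, if they were among the 12 largest per direction that averaged 5 CPM or more in their higher strain, with unadjusted p under 0.01 and the same sign at both oocyte levels, if they were among the 4 lowest p of a list, or if they were linked to the constructs or adjacent to C30G12.1; others are named as chosen after their values were seen.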

Additional observations from a re-analysis of the deposited data

Results flagged for a closer look

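For the 89 genes named, a library was singled out where its gap to the nearest other library took up most of its strain's range (Dixon's criterion for 4 libraries). Chance does so in about 1 group in 20 where the libraries of a group are alike, which they were not here. A library was singled out 39 times, 34 of them for TDP-43 replicate 4, the only oocyte-poor library of that strain. The criterion ignored the oocyte level, so any gene that varies with it can single out this library. In TDP-43dNLS 2 libraries are oocyte-poor. Some genes were also named from the interaction, which rests on this library. The 34 therefore do not separate this library from its oocyte level. It was the highest TDP-43 library for unc-54 (9255 CPM), myo-3 (1054), unc-15 (3850), mlc-1 (2209), mlc-3 (2738), tni-1 (963), tnt-2 (2025), unc-60 (460), unc-87 (2205), atn-1 (673), dim-1 (2191), alp-1 (645) and unc-97 (264 CPM). Among cuticle, molting and hypodermis-linked genes it was highest for dpy-7 (240 CPM), dpy-10 (166), let-653 (94.2), noah-2 (454), bus-18 (19) and mam-4 (29.8 CPM). It was also highest for ceh-22 (7.57 CPM), flp-1 (77.6), zig-12 (788), exh-1 (66.0), C36C5.12 (28.6), C36C5.14 (30.2), Y19D10B.6 (32.2), T20D4.10 (32.8), ddo-2 (139), nspc-9 (58.7), acdh-1 (1639), msra-1 (422), hphd-1 (505) and mtrr-1 (154 CPM), and lowest for irg-1 (9.59 CPM). The other libraries singled out were TDP-43dNLS replicate 1 for C36C5.12 (1.53 CPM, lowest), TDP-43dNLS replicate 3 for C36C5.14 (2.48 CPM, highest), TDP-43dNLS replicate 2 for Y55F3AM.11 (35.9 CPM, highest), and TDP-43 replicate 2 for drd-50 (7.37 CPM, highest) and cebp-1 (13.8 CPM, lowest).

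The strain difference differed between oocyte levels in 71 genes by the interaction test. Given as the log2 difference in oocyte-poor libraries minus that in oocyte-rich libraries, the values were 5.03 for pgp-5, 4.18 for E03H4.8, 3.48 for clec-169, 3.85 for ugt-31, 1.99 for Y54E2A.4, 6.47 for parg-2, 4.72 for C25F9.11, 4.39 for srw-86, 6.54 for T24A6.7, 3.12 for irg-1, 3.07 for cebp-1 and 1.89 for nipi-3. They were -2.26 for ddo-2, -3.36 for nspc-9, -2.95 for acdh-1, -2.80 for msra-1, -2.25 for hphd-1, -2.30 for hach-1 and -2.28 for mtrr-1. Because TDP-43 has 1 oocyte-poor library, the part of that single library in these values cannot be told apart from the part of the strain.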

How the results depend on the processing

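The count of genes between strains was 0 and stayed 0 without the oocyte term, in the oocyte-poor libraries alone, with upper-quartile scaling, the stricter filter (10 CPM in 3 libraries), the replicate block and the molting list level as a further covariate. It was 2 with the oocyte list level as covariate, 1 in all 12 libraries (C30G12.1), 15 in the oocyte-rich libraries alone, 2 with DESeq2 size factors, 18 without the filter, 44 with the DESeq2 Wald test, 4 with limma voom, and 14 in all 12 libraries with the molting list level, an alternative chosen after seeing the data like the molting covariate itself. Leaving out 1 library gave 0 to 2. The interaction called 71 genes, 27 in all 12 libraries (27 shared), 385 without the filter, 45 with the stricter filter, 303 with the DESeq2 Wald test, 130 with limma voom, and 0 to 1594 with 1 library left out, of which 0 without TDP-43dNLS replicate 1, 3 without TDP-43dNLS replicate 2 and 1 without TDP-43 replicate 3; it could not be fitted without TDP-43 replicate 4. The causes were not tested.

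Of the single genes, myo-1 had -0.11 in the oocyte-poor libraries alone. The gene puf-8 had 0.036 in the oocyte-rich libraries alone and -0.47 to 0.047 with 1 library left out, the highest without TDP-43 replicate 4. Without the oocyte term dpy-10 had 0.040, let-653 had 0.24 and noah-2 had 0.25. The gene snb-1 had 0.10 without the oocyte term, 0.0059 in all 12 libraries, 0.38 in the oocyte-poor libraries, 0.0022 with limma voom, 0.023 with the replicate block and -0.20 to 0.075 with 1 library left out. The gene tdp-1 had -0.24 without the oocyte term, -0.073 in the oocyte-poor libraries, -0.10 and -0.18 with the molting list level in 8 and 12 libraries, and -0.029 to 0.13 with 1 library left out. Other named genes kept their direction in each alternative run. Same-numbered libraries correlated at 0.37, 0.77, -0.59 and 0.69 in their deviations from strain means. The negative pair (replicates 3) differs in oocyte level and the other pairs match in it, so these values do not show whether the numbers pair the libraries, and they were not used as pairs. With the number as a block, 0 genes passed, and of all genes tested 506 were lower and 357 higher at an unadjusted p under 0.05. TDP-43 has 1 oocyte-poor library, which limits the precision on that side.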

Other observations

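Germ line, sperm and housekeeping lists had negative medians (TDP-43dNLS over TDP-43) with the oocyte term. In the oocyte-rich libraries alone the median was below 0 for sperm genes and slightly above 0 for the other lists, and in the oocyte-poor libraries it was below 0 for all of them. The difference between levels was not tested over the lists. Sperm genes were lower in TDP-43dNLS in 78 of 84 cases (median -0.50, with -0.25 in oocyte-rich and -0.95 in oocyte-poor libraries), and 1 had an unadjusted p under 0.05. Their mean level was -1.03 and 2.64 log2 CPM in the oocyte-poor TDP-43dNLS libraries and 2.78 in that of TDP-43, so that TDP-43dNLS replicate 3 was far below both others. Germ line genes were lower in 33 of 37 (median -0.22, with 0.02 and -0.76). Genes of the respiratory chain, which makes most cellular ATP, were lower in 46 of 50 (median -0.16, with 0.04 and -0.47), and those of the proteasome, which degrades marked proteins, in 30 of 33 (median -0.11, with 0.13 and -0.51). Cytosolic ribosomal protein genes were lower in 72 of 80 (median -0.08, with 0.01 and -0.19).

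Autophagy and lysosome genes were higher in TDP-43dNLS in 34 of 42 (median 0.12, with -0.03 in oocyte-rich and 0.38 in oocyte-poor libraries), and 3 had an unadjusted p under 0.05. Targets and members of the insulin pathway were higher in 27 of 33 (median 0.25, with 0.07 and 0.72), and 2 had such a p. Hedgehog-related genes, a large nematode family linked to the cuticle, were lower in 58 of 76 (median -0.50), with 9 lower and 1 higher at such a p, and had a median of 0.14 without the oocyte term and 0.04 with the molting list level as covariate. Cuticle collagen genes were lower in 92 of 134 (median -0.46), with 7 lower and 4 higher, and had -0.17 and 0.15 under the same settings. Over all genes tested 3.14% were lower and 2.16% higher at such a p. The 10 heat shock genes tested had a median of 0.15 (-0.18 in oocyte-rich and 0.74 in oocyte-poor libraries), and 0 had such a p. By chromosome, the X chromosome had 37 genes lower and 8 higher at an unadjusted p under 0.01 among 2325 tested, or 1.94%, against 0.78% (chromosome III) to 1.39% (chromosome V) on the autosomes. The lower X genes include sarcomere genes described above, among them mlc-1, tni-1, tnt-2, dim-1 and unc-97, so this count partly repeats that result.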
